A study of Homo sapiens with 20 samples.

Results

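The RfxCas13d screen in HEK293FT cells measured the abundance of 17572 guide RNAs at day 14 and at day 0 of nuclease induction. These are all guides with a name and a value in the table of this screen, out of 81543 guides in the 4 tables of the series, and they comprise 16572 targeting guides and 1000 non-targeting guides. Both groups were HEK293FT cells, a line from human embryonic kidney, engineered to carry nuclear-localised RfxCas13d under control of doxycycline and transduced with the guide library by lentivirus. Selection used puromycin at 1 µg/ml, and induction used medium with doxycycline at 1 µg/ml, puromycin at 1 µg/ml and blasticidin at 5 µg/ml. Cells were kept at more than 1000 per guide, and the labels give doxycycline induction as the treatment of both days, with day 0 as the input. Each day had 2 libraries, which the labels number as replicates 1 and 2 and describe as coming from separate infections. The labels do not say whether the line is a clone. The same guide library was put through RfxCas13d HAP1 cells, a leukaemia line with a near-haploid genome, also with 2 libraries at each day, and these serve here as a second line for comparison and give a measure of abundance at day 0 that is independent of the HEK293FT libraries.

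RfxCas13d is an RNA-guided nuclease that binds and cuts RNA matching its guide, without cutting the DNA of the gene. In a pooled fitness screen each cell carries a guide in its genome, so the guide cassette counted from genomic DNA stands for the cell and its descendants. A guide whose target RNA the cell needs for growth becomes rarer while Cas13d is present, and a non-targeting guide, which matches no transcript, tracks the growth of unperturbed cells.

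The guides are known here by number. The tables used here pair no guide with a gene or a sequence, so which RNAs were targeted was not analysed here and no sequence is shown. All values are signal, the authors' normalised abundance, whose normalisation is not stated and whose depth in reads is unknown. Fold changes are on the log2 scale, day 14 less day 0, after each library was aligned on the non-targeting guides, and each SE is that of the limma fit.

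The 4 libraries of the screen resembled each other in their overall levels. The median signal of targeting guides was 134.5 and 132.9 in the day 0 libraries and 129.8 and 131.2 in the day 14 libraries. The median of non-targeting guides lay between 431.7 and 435.9 in all 4 libraries. The spread between the replicates of a day, as an SD of log2 signal, was 0.178 at day 0 and 0.186 at day 14 for targeting guides, and 0.208 and 0.222 for non-targeting guides. Only 11 cases were found in which the replicates of a day differed by 4-fold or more, 3 at day 0 and 8 at day 14, and in 7 of the 8 the first day 14 library was the lower. That library also had 39 guides with a signal under 20, against 12 in the second day 14 library and 1 in each day 0 library.

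The comparison of day 14 with day 0 asked which guides were lost during 14 days of RfxCas13d. By limma with a Benjamini-Hochberg adjusted p under 0.05, 209 guides fell, which is 1.19% of all guides tested, and 3 rose, which is 0.0171%. All 209 were targeting guides. Their changes ran from -5.48 to -0.70 with a median of -1.55, and 160 were below -1, 65 below -2, 27 below -3 and 5 below -4. In 209 of 209 both day 14 libraries lay below both day 0 libraries, an arrangement that 26.6% of all guides showed, while 17.7% showed the opposite. The calls came from the same libraries, so this separation largely follows from them and adds no support. No non-targeting guide was called by limma, although 151 of 1000, or 15.1%, had an unadjusted p under 0.05, as had 13.0% of targeting guides. Guides without any change should give a share near 0.05, so the unadjusted p-values ran low. The bulk of the targeting guides hardly moved, with a median of -0.03 and a central range from -0.18 at the lower quartile to 0.10 at the upper quartile. The number that fell depends on single libraries. It grew when day 0 replicate 1, day 0 replicate 2 or day 14 replicate 2 was left out, and changed little without day 14 replicate 1. The number that rose grew in the former fits. In every fit lacking a library some of the guides that rose were non-targeting, and a day was left with a single library.

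Large falls were seen in both pairs of libraries. Taken within the same replicate number, 172 targeting guides were below -1 in both pairs of libraries and 55 were below -2 in both, while 0 were above 1 in both. Among the 1000 non-targeting guides 1 was below -1 in both pairs and 0 were below -2. The pair of first replicates alone had 367 targeting guides below -1 and the pair of second replicates 228. Of the 166 guides in the lowest 1% of the first pair, 110 were also in the lowest 1% of the second pair.

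The guide gID_14012 had the lowest fold change over all 4 libraries. Its signal was 510.3 and 384.8 in the day 0 libraries and 3.48 and 28.4 in those of day 14, so that both day 14 libraries were far below day 0 but differed from each other 8.17-fold. The change was -5.48 ± 0.75 (SE over 2 libraries a day), a 44.5-fold fall. Its limma adjusted p was 0.00823, and 0.269 with a robust variance prior. The change was -3.96 when day 14 replicate 1 was left out and -6.99 when day 14 replicate 2 was. In the former fit gID_11990, at -5.13, and gID_11991, at -5.05, were lower than gID_14012.

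The guide gID_11991 fell nearly as far and with close replicates. It went from 525.1 and 450.3 at day 0 to 9.24 and 14.7 at day 14, a change of -5.38 ± 0.24 (SE over 2 libraries a day, limma adjusted p = 1.41e-05). Its neighbour in number, gID_11990, went from 298.8 and 335.6 to 22.3 and 9.0, a fall of 22.3-fold. These neighbours belong to the same set of 4 consecutive numbers, described further on.

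The guide gID_15651 came after gID_11991 in the order of falls, at -4.49 ± 0.85 (SE over 2 libraries a day, limma adjusted p = 0.048). Its signal was 10449 in the first day 0 library and 948.0 in the second, against 125.4 and 155.6 at day 14. A single library therefore sets much of the value, which was -2.75 without day 0 replicate 1 and -6.23 without day 0 replicate 2. Its adjusted p was 0.053 with a trimmed mean over all guides and 0.478 with a robust variance prior. Even the lower day 0 library was still above the higher day 14 library.

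Next in the order of falls came gID_11990, described above, at -4.48. It was followed by gID_04020, gID_02996, gID_02995, gID_12494, gID_07256 and gID_13161, with log2 fold changes between -4.08 and -3.68. The guide gID_04020 went from 390.7 and 312.9 to 24.7 and 17.2. The guide gID_12494 went from 449.6 and 334.6 to 23.2 and 33.8. In each of these 6 guides the lower day 0 library was many-fold above the higher day 14 library, so the groups were far apart. The guide gID_07256 stands out for starting low, at 107.5 and 180.0, and ending at 9.98 and 11.2, and its adjusted p of 0.00136 from limma became 0.307 without day 0 replicate 2. The other 5 kept an adjusted p under 0.05 in all alternatives run.

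The guides with the highest mean signal among those that fell, other than gID_15651, had small falls. The guide gID_03058 went from 680.9 and 674.3 at day 0 to 323.9 and 247.2 at day 14, a 2.39-fold fall with an adjusted p of 0.00666 from limma. The guide gID_15284 went from 598.0 and 674.0 to 325.7 and 338.0, a 1.91-fold fall, and gID_02231 from 720.7 and 640.7 to 392.6 and 345.8, a 1.84-fold fall. The guide gID_16111 went from 531.8 and 722.2 to 332.9 and 269.4, a 2.06-fold fall. In all 4 the days were apart by more than the replicates, but gID_02231, gID_15284 and gID_16111 each lost the call in 2 to 4 of the alternatives, among them the replicate block, where their limma adjusted p lay between 0.0590 and 0.0885.

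The 3 guides that rose did so by less than 2-fold. The guide gID_15306 went from 79.7 and 88.7 at day 0 to 143.3 and 145.6 at day 14, at 0.78 ± 0.13 (SE over 2 libraries a day). The guide gID_13063 went from 110.7 and 110.1 to 168.5 and 180.1, and gID_11642 from 108.5 and 108.8 to 174.8 and 167.6. The days did not overlap in any of them. With a replicate block their adjusted p by limma was 0.0885, 0.133 and 0.134, and 0 guides rose.

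The non-targeting guides set the scale of change without a target. Their fold changes had an SD of 0.275, with 1% below -0.68 and 1% above 0.61. In both extremes the day 14 replicates were far apart. The guide gNT_000960 had the lowest change, -2.33, from a signal of 30.5 and 37.8 at day 0 to 2.61 and 17.3 at day 14, and the guide gNT_000633 the highest, 1.83, with 360.7 and 780.7 at day 0 and 7127 and 494.4 at day 14. Neither was called, at adjusted p values of 0.565 and 0.472 from limma. In 57 targeting guides the change was below that of gNT_000960.

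Loss was concentrated in guides that were abundant at day 0 of the HAP1 screen. There targeting guides fell into groups of low and high abundance, with few between. In log2 signal, 2224 targeting guides lay between 7 and 7.25, 56 in the bin of the same width just below 8, and 539 in the bin just below 9. Split at a signal of 215.3 in the HAP1 libraries, so that no HEK293FT value entered the split, 1988 guides were abundant and 14584 were not, with 191 within 0.25 of the border on the log2 scale. Of the abundant guides 162 fell, or 8.15%, against 47 of the less abundant guides, or 0.322%, and 0 of 1000 non-targeting guides, beside 1.19% of all guides tested. Abundant guides were thus 12.0% of the targeting guides and 77.5% of those that fell. Shares called depend on precision, but the sizes of change differed in the same direction. Of abundant guides 6.49% were below -1, of less abundant guides 0.837% and of non-targeting guides 0.200%. The border was set after the values were seen, and with log2 borders at 7.5 and 8.0 the shares that fell were 7.91% and 7.71% against 0.284% and 0.410%.

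The abundant guides are the ones that can be set against non-targeting guides of like abundance. Their median signal was 470.9 and 479.0 in the day 0 libraries, above the 433.9 and 435.9 of the non-targeting guides. At day 14 it was 434.6 and 423.2, near the 434.1 and 431.7 of the non-targeting guides. The log2 difference of these medians, in aligned libraries, was 0.118 and 0.136 at day 0 and 0.002 and -0.029 at day 14, a change of -0.14 with no overlap between the days. For the less abundant guides the change of the same difference was -0.03. An exact two-sided permutation test over the 4 libraries gave p = 0.333 for both, the smallest that 6 regroupings allow, so that this design cannot pass a threshold on a value per library. Replicate spread was alike in both kinds, with an SD of 0.215 at day 0 and 0.208 at day 14 for abundant guides and 0.208 and 0.222 for non-targeting guides.

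Within the abundant group the loss was not even. Guides between 8.0 and 8.5 in HAP1 day 0 log2 signal fell in 18.4% of 354 cases, those between 8.5 and 9.0 in 7.47% of 950 cases, and those above 9.0 in 2.07% of 628 cases. The lowest 1% of abundant guides lay below -3.06 and the lowest 5% below -1.23, while their upper tail, with 1% above 0.50, was no wider than that of the non-targeting guides. Among the less abundant guides the lowest 1% lay below -0.90. With a library left out, between 145 and 228 abundant guides were called lower, among them between 133 and 161 of the 162. Less abundant guides called lower numbered 143 with day 0 replicate 1 left out, 121 with day 0 replicate 2 left out, 56 with day 14 replicate 1 left out and 262 with day 14 replicate 2 left out, among them between 28 and 47 of the 47. In those 4 fits 14, 7, 1 and 6 non-targeting guides were also called lower. The same split in HAP1 gave 19.1% of abundant and 5.24% of less abundant guides called lower, though the split there uses the day 0 libraries of that comparison itself.

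Guides were also grouped in sets of 4 consecutive numbers. The mean of each set was fitted across 4424 sets, of which 4174 were of targeting guides. In HEK293FT 116 sets fell, or 2.62%, and 0 rose, or 0%, by limma at an adjusted p under 0.05, while 110 sets with a change above 0 had an unadjusted p under 0.05. All 116 had both day 14 set means below both day 0 set means, which largely follows from the call in the same libraries. Their changes ran from -3.68 to -0.33 with a median of -0.83, and 42 were below -1. Of 473 sets made wholly of abundant guides 76 fell, or 16.1%, and of 3667 sets with no abundant guide 33 fell, or 0.900%. Another 7 were among the 34 mixed sets, or 20.6%, and none of the 250 non-targeting sets was called. One mixed set holds gID_04018 and gID_04020, which the HAP1 split counts as less abundant. In HEK293FT at day 0 their signal was 380.9 and 231.7, and 390.7 and 312.9. The number of lower sets was 67 when either day 0 replicate 1 or day 0 replicate 2 was left out, and 296 without day 14 replicate 2. With set borders moved by 1, 2 and 3 numbers, which mixes guides of neighbouring sets, 187, 152 and 168 groups fell, so the count of groups does not bear out the borders.

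The set of gID_11989 to gID_11992 fell most. Its mean signal, a geometric mean over the 4 guides, was 382.3 and 382.7 at day 0 and 31.1 and 28.5 at day 14, a change of -3.68 ± 0.079 (SE over 2 libraries a day, limma adjusted p = 9.29e-09). The set means of the replicates were close on each day, though single guides were further apart and in opposite directions. At day 14 gID_11990 had 22.3 and 9.0, and gID_11991 had 9.24 and 14.7. Within the set gID_11989 fell least, at -1.24, followed by gID_11992 at -3.63, gID_11990 at -4.48 and gID_11991 at -5.38. All 4 were called lower.

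A set close by in number, gID_11981 to gID_11984, fell by 3.03 on the log2 scale, from 373.4 and 383.6 at day 0 to 40.1 and 53.5 at day 14. Its first guide gID_11981 was at -1.83 and the other 3 were between -3.59 and -3.33. The set gID_04229 to gID_04232 went from 364.0 and 326.2 to 39.8 and 54.1, and again its first guide fell least, at -1.60 against values between -3.64 and -2.79. In both sets all 4 guides were called lower.

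The set gID_14009 to gID_14012 holds gID_14012. It went from 413.8 and 380.2 at day 0 to 44.7 and 80.0 at day 14, and its guides were at -1.45, -1.35, -2.64 and -5.48. The set gID_12493 to gID_12496 went from 471.6 and 411.2 to 70.6 and 85.4, with guides at -1.66, -3.79, -2.81 and -1.75. The set gID_04017 to gID_04020 went from 471.2 and 379.7 to 75.9 and 70.5 although its first guide, gID_04017, was not called, at 0.02 ± 0.15 (SE over 2 libraries a day). The other 3 of that set fell, at -2.62, -3.44 and -4.08. In these 6 sets the set mean kept an adjusted p under 0.05 in all 108 alternative fits with the borders as numbered. Among these fits the replicate block gave p-values too small to be taken at face value.

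Guides of the same set often differed in HEK293FT in whether they were called, and in some sets they differed widely in change. The 209 guides that fell lay in 120 sets. In 66 of these only 1 guide was called, in 30 there were 2, in 13 there were 3 and in 11 all 4. A guide not called is not shown to differ from its neighbours, as only 11 of 50 simulated guides at -1 were recovered. Among the 116 lower sets 30 had no guide called on its own, and their median change was -0.46, while the 11 with all 4 guides called ranged from -3.68 to -1.86. The median distance from the lowest to the highest guide of a complete set was 0.41 over 4044 sets and 1.26 over the 112 complete lower sets. Part of this distance is noise between guides, as non-targeting guides alone had an SD of 0.275 in fold change. A wide difference was seen in the set of gID_04389 to gID_04392. There gID_04391 fell from 279.9 and 248.1 at day 0 to 25.3 and 29.2 at day 14. Its neighbours were at -0.48, -0.44 and -0.37. The guide gID_13011 likewise went from 89.7 and 135.2 to 21.3 and 37.5 while the other 3 guides of its set were between -0.34 and -0.01. In the set of gID_02993 to gID_02996 the last guides gID_02995 and gID_02996 were at -3.80 and -3.95, and gID_02993 was at 0.35.

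Among abundant guides the fall was larger at the later places of a set. There the mean change was -0.15, -0.19, -0.30 and -0.36 from the first to the fourth place of a set, and 4.26%, 5.49%, 11.0% and 11.7% of guides were called lower. The level of the fourth place less that of the first was -0.017 in both day 0 libraries and -0.250 and -0.223 at day 14, so the places were level at the start and apart at the end. That gives an exact two-sided permutation p of 0.333, the smallest possible with 6 regroupings. Among less abundant guides the mean change was -0.0349, -0.0353, -0.0461 and -0.0707 from the first to the last place. The level of their last place less that of the first was 0.112 and 0.129 at day 0 and 0.057 and 0.111 at day 14, a change of -0.04 between days that nearly touched. Of the 112 complete lower sets 64 had their lowest change at the fourth place, 29 at the third, 12 at the second and 7 at the first. Over all 4044 complete sets these places were lowest in 28.3%, 24.2%, 23.1% and 24.4%. The numbers within a set follow the order of change in HAP1, where the fourth place was lowest in 90.9% of these sets, so that the order in HEK293FT describes how far guides of a set ranked alike in the lines. Non-targeting guides had mean changes between -0.01 and 0.01 at the 4 places. Their mean HAP1 changes, 0.002, 0.037, 0.013 and -0.031 from the first place to the fourth, do not follow that order. They are therefore no control for the places.

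Lower guides occurred along the whole range of guide numbers. In blocks of 1000 numbers between 0.506% and 3.22% of the targeting guides fell. The highest share was in numbers 11001 to 12000, with 32 of 995 guides, 25 of them abundant, and this block holds the sets of gID_11981 and gID_11989.

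Most guides that fell in HEK293FT also fell in HAP1. Of the 209, 166 were called lower in HAP1, or 79.4%, where 6.53% of the 17571 shared guides were. Abundant guides made up 77.5% of the 209, and of all abundant guides 19.1% were called lower in HAP1. From the other side, 14.5% of the 1148 shared guides lower in HAP1 were called in HEK293FT. The median HAP1 change of the 209 guides was -3.25, and 157 of them were further down in HAP1. Tested as an interaction of day and line, the change was lower in HAP1 for 86 of the 209, lower in HEK293FT for 16, and did not differ past the threshold for 107. Of all 17571 shared guides 696, or 3.96%, were lower in HAP1. The interaction uses the HEK293FT libraries that chose the 209. The counts of 86 and 16 depended on which libraries of either line were used, and a replicate block gave 78 and 9. In gID_11991 the lines did not differ past the threshold, at -5.38 in HEK293FT and -4.79 in HAP1, a difference of -0.59 ± 0.38 (SE). In gID_12494 the difference was -0.09 ± 0.31 (SE), and in gID_04020 it was 3.60 ± 0.59 (SE, limma adjusted p = 0.0032).

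The change was lower in HEK293FT than in HAP1 for 129 of 17571 shared guides, or 0.734%, by limma at an adjusted p under 0.05. Only 16 of these were called lower in HEK293FT itself, and 67 were called higher in HAP1. The guide gID_04391, described above, was at -3.27 in HEK293FT and 0.14 in HAP1, a difference of -3.42 ± 0.21 (SE, limma adjusted p = 4.88e-06). The guide gID_06366 went from 293.8 and 469.0 at day 0 to 45.5 and 44.0 at day 14 in HEK293FT and was at 0.02 in HAP1, a difference of -3.07 ± 0.28 (SE, limma adjusted p = 8.27e-05). The guide gID_13011 differed by -2.21 ± 0.40 (SE, limma adjusted p = 0.00582). These 3 had the lowest differences among the guides called lower in HEK293FT whose difference passed the threshold. They were thus chosen on the difference itself, and their values describe them without supporting it.

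As sets, 96 of 4424, or 2.17%, had a lower change in HEK293FT than in HAP1. Of the 116 sets lower in HEK293FT, 12 were among these and 68 had a lower change in HAP1. The other 36 did not differ past the threshold. In HAP1 99 of the 116 were called lower. The set of gID_06365 to gID_06368 was at -2.10 in HEK293FT and -0.50 in HAP1, a difference of -1.60 ± 0.12 (SE, limma adjusted p = 2.13e-06). In HEK293FT its guides were at -0.63, -3.05, -2.15 and -2.56, of which the last 3 were called. The set of gID_01081 to gID_01084 was at -0.55 in HEK293FT and rose to 1.25 in HAP1. Of the 129 guides and 96 sets, a replicate block left 39 and 27, and with a library of either line left out the numbers ran from 52 to 280 guides and from 26 to 167 sets. The lines come in separate tables whose normalisation is unknown, and line cannot be told apart from table.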

How the data were processed

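Guide cassettes were amplified from genomic DNA and sequenced. The authors deposited a table of normalised signal for each screen. Per the submitters' processing notes, cutadapt 1.13, Bowtie 1.1.2 and the build GRCh38 were used, and the normalisation is not given in the sources used here. No value repeated within a library, so reads could not be recovered and the depth is unknown.

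In the HEK293FT file, 120 entries without a name were left out and log2 values of 16 repeated names were averaged. Libraries were scaled by the mean log2 deviation of non-targeting guides with 30% trimmed at either end. Log2 signal without a pseudocount was tested by limma 3.58.1 (R 4.3.3) between the days, using a variance trend. Calls needed an adjusted p under 0.05 (Benjamini-Hochberg). The filter on mean signal, at 10, removed 0 guides. Sets of 4 numbers with at least 3 guides were averaged before the fit. The difference between lines was an interaction in the 8 libraries of both. In data simulated at the real levels and spreads, 0 of 50 guides at -0.5, 11 of 50 at -1, 38 of 50 at -2 and 49 of 50 at -4 were recovered, with 1 false call among 17372. Of the real non-targeting guides 15.1% had an unadjusted limma p under 0.05, so that count of false calls need not hold for the real libraries.

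Named guides were the 10 lowest of those called with separated days, the 5 called lower with the highest mean signal, those called higher, the extreme non-targeting guides, the 6 lowest complete sets, and the 3 guides called lower in HEK293FT with the lowest difference from HAP1 among those whose difference passed the threshold. The guides gID_02993, gID_04389 and their neighbours are set mates of these. The sets gID_06365 and gID_01081 were added after their values were seen, as were the abundance border and the places. The members, lists and rules were chosen with earlier results of these data known. The labels describe separate infections, and p-values measure only the spread between these libraries.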

Additional observations from a re-analysis of the deposited data

Results flagged for a closer look

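The lines differed in their change over 14 days. By the test of the interaction of day and line, 129 guides and 96 sets were lower in HEK293FT than in HAP1. In the other direction, 696 guides were lower in HAP1. Of the 116 sets that fell in HEK293FT, 68 had a lower change in HAP1 and 12 in HEK293FT. The guides gID_04391, gID_06366 and gID_13011 had differences of -3.42, -3.07 and -2.21 on the log2 scale. These 3 were chosen for that difference in the same libraries, so their values are a description. Groups of 2 libraries are too small to look for a library that stands apart within a day.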

How the results depend on the processing

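The depth of these libraries is unknown, and signal near the lowest level limits how far a fall can be measured. With a replicate block 203 sets fell and 1 rose, 0 guides rose, and 39 guides and 27 sets were lower in HEK293FT than in HAP1. In that fit of sets the set of gID_11989 had a limma adjusted p of 1.6e-225, against 9.29e-09 in the main fit. Its p-values, and so the 203, cannot be taken at face value. Same-numbered libraries of the days deviated oppositely (r = -0.327 over guides), and with the numbers crossed in the block 674 guides fell and 146 rose, with 23 and 28 non-targeting guides among them, 277 sets fell and 20 rose, and 845 guides and 484 sets were lower in HEK293FT than in HAP1, a pairing chosen after seeing these data. The guides that rose numbered 6 with a trimmed mean over all guides, 9 with total signal, 2 of them non-targeting under either scaling, 1 without a variance trend, 5 with a robust prior, and 0 with an absolute change of at least 1, which left 42 lower sets. The sets that rose numbered 1 with the trimmed mean over all guides, 3 with total signal, 9 with set medians, 1 with targeting sets alone, and 3, 2 and 2 with borders moved by 1, 2 and 3, the first of which gave 187 lower sets. Over the fits lacking a library, guides that fell numbered 202 to 445 and those that rose 3 to 51, sets that fell 67 to 296 and those that rose 0 to 7, and 52 to 280 guides and 26 to 167 sets were lower in HEK293FT than in HAP1. The SD of log2 signal over targeting guides changed by 0.00763 between the days, by -0.00222 with a pseudocount of 10 and by between -0.0183 and 0.0335 with a library left out, so it has no settled direction. The guide gNT_000633 was at -0.10 without day 14 replicate 1 and at 3.75 without day 14 replicate 2. Of 351 alternative fits of the 22 named guides, 28 lost the call. Those fits include the ones of gNT_000633 and gNT_000960, which had no call to lose. The causes were not tested.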

Other observations

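The HAP1 table holds 119 guides that the HEK293FT table does not, all targeting, each in a set of its own and none of them abundant. In HAP1 their median day 0 signal was 109.3 against 109.0 for the other targeting guides, and 5.04% of them were below -1 against 6.44%.

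The 16 names that occur on 2 rows of the HEK293FT table had similar but unequal values, with a median distance in log2 signal between 0.038 and 0.091 in the 4 libraries and a median distance in fold change of 0.097.

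In 3 guides the day 0 replicates differed by 4-fold or more, and all 3 were abundant targeting guides. Besides gID_15651, these were gID_15193, with 694.9 and 10421 at day 0 and 646.0 and 432.4 at day 14, and gID_12087, with 3053 and 264.2 at day 0 and 277.5 and 595.3 at day 14. They were picked out after their values were seen. In neither of these did the fall pass the threshold, at adjusted p values of 0.352 and 0.650 from limma.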
